A study of Drosophila melanogaster with 50 samples.

Results

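The genes described here encode peptidoglycan recognition proteins (PGRPs) of the fruit fly. The family was taken as 9 genes, PGRP-SA, PGRP-SD, PGRP-LC, PGRP-LE, PGRP-LA, PGRP-LF, PGRP-LB, PGRP-SC2 and PGRP-SB1, and each gene was read from a probe set whose only gene symbol in the array annotation was that gene. Of these 9 genes, 6 had such a probe set, 1 each, among 11982 genes with a probe set of their own. PGRP-SA, PGRP-SD and PGRP-LC were on none and were not analysed here, so the secreted proteins of the Toll side and the main surface receptor of the Imd side are missing from every count below.

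PGRPs bind peptidoglycan, the polymer of bacterial cell walls, and are best known for telling the fly which bacteria are present. Peptidoglycan of the kind found in Gram-negative bacteria is sensed by PGRP-LC at the cell surface and by PGRP-LE inside the cell, and both signal through the Imd pathway to the NF-kappaB factor Relish (Rel), which switches on genes of antimicrobial peptides. Other members work the opposite way, either by holding back the receptor, as PGRP-LF does, or as amidases that cut peptidoglycan into fragments that no longer stimulate, as PGRP-LB, PGRP-SC2 and PGRP-SB1 do. The gut and the fat body are the tissues in which this system is best studied.

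The series held 50 Affymetrix arrays of whole adult Oregon R flies from 3 ground facilities that alter the pull of gravity. Of the 5 d flies of the random positioning machine (RPM), which ran at 14C, those labelled males were collected at 0g (n = 4) and outside at 1g (n = 3), and those labelled females at 0g (n = 3) and outside at 1g (n = 3). In the magnetic levitator, 5 d females at 14C were placed at 0g*, 1g* and 2g* (3 arrays each), and controls stood outside the field at 24C (n = 3) or 14C (n = 2). Further runs of 80 h in the levitator gave 5 d females at 0g* and 1g* and 14C (2 arrays each) and outside at 24C (n = 3). In the large diameter centrifuge (LDC, 22C), females of 20 d and of 5 d were each collected at 2g (n = 4), in a rotational control (1g-rot, n = 2) and outside at 1g (n = 2). The star marks a gravity level inside the magnetic field.

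Values are log2 RMA values, and a difference of 1 on this scale is a doubling. Array medians were 5.23 to 5.85, and the background of an array, read from 50 control probe sets for plant genes as their 95th percentile, was 3.86 to 4.49. Each of the 6 genes lay above the background of its own array on all 50 arrays. On the RPM arrays, transcripts made in 1 sex ran opposite to the labels. Yolk protein genes, which females express, had medians per array of 13.67 to 14.2 for the labelled males and 5.2 to 12.99 for the labelled females, and accessory gland genes, which males express, had 3.74 to 6.8 and 11.02 to 12.07. On 6 arrays transcripts of both sexes were found. These were replicate 1 of the RPM labelled males at 0g, replicates 2 and 3 of the RPM labelled females at 0g, replicate 3 of the same label at 1g, and the first 1g* array of the magnet runs and of the 80 h runs. The titles call the replicates biological without naming separate cultures, so the tests measure the spread between these arrays.

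The 6 measured genes lie on several chromosome arms. PGRP-LE is on the X, PGRP-LA, PGRP-LF and PGRP-SB1 are on 3L, PGRP-LB is on 3R and PGRP-SC2 is on 2R. On 3L, PGRP-LC lies between PGRP-LA and PGRP-LF, and PGRP-SB1 lies next to PGRP-SB2. On 2R, PGRP-SC2 lies next to PGRP-SC1b. The probe sets of PGRP-LB (suffix _s_at) and PGRP-LA (suffix _a_at) carry suffixes for probes shared by several transcripts.

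Over 23 comparisons of groups, 20 of 138 tests of a PGRP gene passed an adjusted p under 0.05 (limma, adjusted over 18769 probe sets). The 3 comparisons of 20 d with 5 d flies held 15 of these calls in 18 tests. There 18.9% of all probe sets passed at 2g, 11.1% at 1g and 18.5% at 1g-rot. The labels of the RPM arrays held 4 in 12 tests, where 52.4% of all probe sets passed at 1g and 51.4% at 0g. The 80 h magnet runs held 1, at 1g* against outside, where 1.01% of all probe sets passed. The remaining 17 comparisons, which include all 10 between gravity levels, held 0 of 102 tests by limma, while 16 of the 102 had an unadjusted p under 0.05, as had 9.07% of the tests of all probe sets there. Many of these comparisons share arrays and are not independent.

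**Figure D1:**
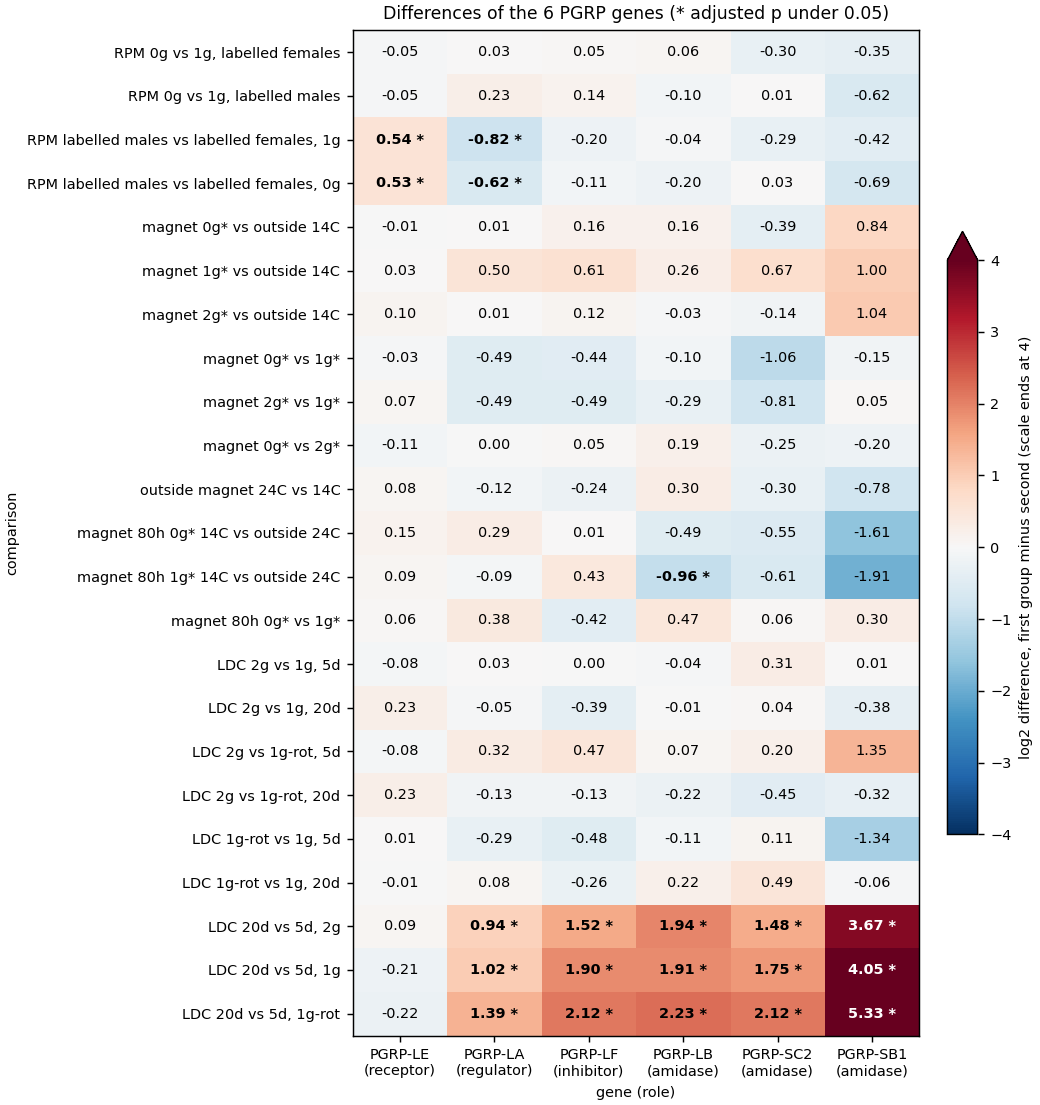
Log2 difference of each of the 6 PGRP genes (columns, with their roles) in each of the 23 comparisons (rows, first group minus second); bold values with a star passed an adjusted p under 0.05. The 20 starred values lie in 6 rows, 15 of them in the 3 rows of 20 d against 5 d flies at the bottom.

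In the centrifuge, 5 of the 6 genes rose with age at 2g, at 1g and at 1g-rot, and PGRP-LE did not pass the test at any of these. The amidase gene PGRP-SB1 moved most, being 12.7-fold higher in 20 d flies than in 5 d flies at 2g, 16.6-fold at 1g and 40.2-fold at 1g-rot. At 2g, 5 of 6 genes rose, against 10.0% of all probe sets. At 1g it was 5 of 6 against 4.98%, and at 1g-rot 5 of 6 against 8.22%. The median difference of the 6 genes was 1.50 at 2g, 1.82 at 1g and 2.12 at 1g-rot, where the medians over all probe sets were -0.02, 0.01 and 0.02. The arrays of 20 d flies lay wholly above those of 5 d flies for 10.7% of all probe sets at 2g, 27.2% at 1g and 24.9% at 1g-rot. In whole flies, more cells of a type and more RNA per cell cannot be told apart.

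PGRP-LE, the intracellular receptor, was nearly level between the ages. It read 8.5, 8.62, 8.59 and 8.59 in 20 d flies at 2g, against 8.44, 8.64, 8.41 and 8.45 in 5 d flies at 2g, and the arrays of both ages overlapped. The difference was 0.09 (SE 0.08, n = 4 each, adjusted p = 0.573), with a 95% interval of -0.09 to 0.27. At 1g it read 8.39 and 8.31 in 20 d flies, against 8.61 and 8.51 in 5 d flies, a difference of -0.21 (SE 0.12, adjusted p = 0.316). At 1g-rot it read 8.47 and 8.22 in 20 d flies, against 8.57 and 8.56 in 5 d flies, a difference of -0.22 (SE 0.12, adjusted p = 0.237). The 20 d arrays were the lower ones in both of these pairs, without overlap, but neither difference passed the test, and 28.9% of all probe sets at 1g and 23.8% at 1g-rot lay apart in that direction.

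PGRP-LA, a member that is thought not to bind peptidoglycan itself and to modulate Imd signalling, was higher on every 20 d array than on every 5 d array. It read 7.84, 7.92, 7.99 and 8.28 in 20 d flies at 2g, against 6.78, 7.42, 7.27 and 6.82 in 5 d flies at 2g. In the smaller groups it read 8.17 and 7.95 in 20 d flies at 1g against 7.23 and 6.86 in 5 d flies at 1g, and 8.54 and 7.74 in 20 d flies at 1g-rot against 6.61 and 6.9 in 5 d flies at 1g-rot. No arrays of the 2 ages overlapped. The difference was 0.94 at 2g (SE 0.18, adjusted p = 0.00156), 1.02 at 1g (SE 0.26, adjusted p = 0.0172) and 1.39 at 1g-rot (SE 0.26, adjusted p = 0.00151).

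PGRP-LF, the membrane protein that restrains the Imd receptor, also separated the ages. It read 8.21, 7.63, 8.28 and 8.24 in 20 d flies at 2g, against 6.25, 7.27, 6.59 and 6.18 in 5 d flies at 2g. It read 8.56 and 8.39 in 20 d flies at 1g against 6.87 and 6.28 in 5 d flies at 1g, and 8.69 and 7.75 in 20 d flies at 1g-rot against 6.08 and 6.12 in 5 d flies at 1g-rot. The nearest arrays of the ages were both at 2g, 20 d replicate 2 and 5 d replicate 2. The difference was 1.52 at 2g (SE 0.24, adjusted p = 0.000284), 1.90 at 1g (SE 0.34, adjusted p = 0.00165) and 2.12 at 1g-rot (SE 0.34, adjusted p = 0.000547).

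All 3 amidase genes rose at 2g, at 1g and at 1g-rot. PGRP-LB encodes an amidase that limits the Imd response in gut and body cavity. It read 8.61, 9.26, 9.31 and 9.21 in 20 d flies at 2g, against 6.68, 8.13, 7.18 and 6.65 in 5 d flies at 2g. It read 9.4 and 8.81 in 20 d flies at 1g against 7.61 and 6.79 in 5 d flies at 1g, and 9.82 and 8.82 in 20 d flies at 1g-rot against 7.08 and 7.1 in 5 d flies at 1g-rot. The highest 5 d array, 2g replicate 2, still lay below the lowest 20 d array. The difference was 1.94 at 2g (SE 0.31, adjusted p = 0.000275), 1.91 at 1g (SE 0.44, adjusted p = 0.0095) and 2.23 at 1g-rot (SE 0.44, adjusted p = 0.00216), which is 3.83-fold, 3.75-fold and 4.69-fold.

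PGRP-SC2, a secreted amidase made in the gut, read 11.16, 10.85, 10.67 and 10.52 in 20 d flies at 2g, against 8.68, 10.27, 9.52 and 8.81 in 5 d flies at 2g. It read 10.66 and 10.86 in 20 d flies at 1g against 9.53 and 8.5 in 5 d flies at 1g, and 11.43 and 11.06 in 20 d flies at 1g-rot against 8.94 and 9.31 in 5 d flies at 1g-rot. The ages did not overlap, and 5 d 2g replicate 2 again came closest to the 20 d arrays. The difference was 1.48 at 2g (SE 0.30, adjusted p = 0.00198), 1.75 at 1g (SE 0.42, adjusted p = 0.0126) and 2.12 at 1g-rot (SE 0.42, adjusted p = 0.00226).

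PGRP-SB1, a secreted amidase whose transcript is known to respond to infection, read 11.7, 12.38, 12.33 and 12.31 in 20 d flies at 2g, against 9.08, 10.67, 7.47 and 6.82 in 5 d flies at 2g. It read 12.8 and 12.31 in 20 d flies at 1g against 9.77 and 7.24 in 5 d flies at 1g, and 12.9 and 12.09 in 20 d flies at 1g-rot against 7.29 and 7.04 in 5 d flies at 1g-rot. The 20 d arrays lay close together, while the 5 d arrays were spread over several log2 units, with 2g replicate 2 and 1g replicate 1 on top. The difference was 3.67 at 2g (SE 0.65, adjusted p = 0.000769), 4.05 at 1g (SE 0.93, adjusted p = 0.00945) and 5.33 at 1g-rot (SE 0.93, adjusted p = 0.000947).

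**Figure D2:**
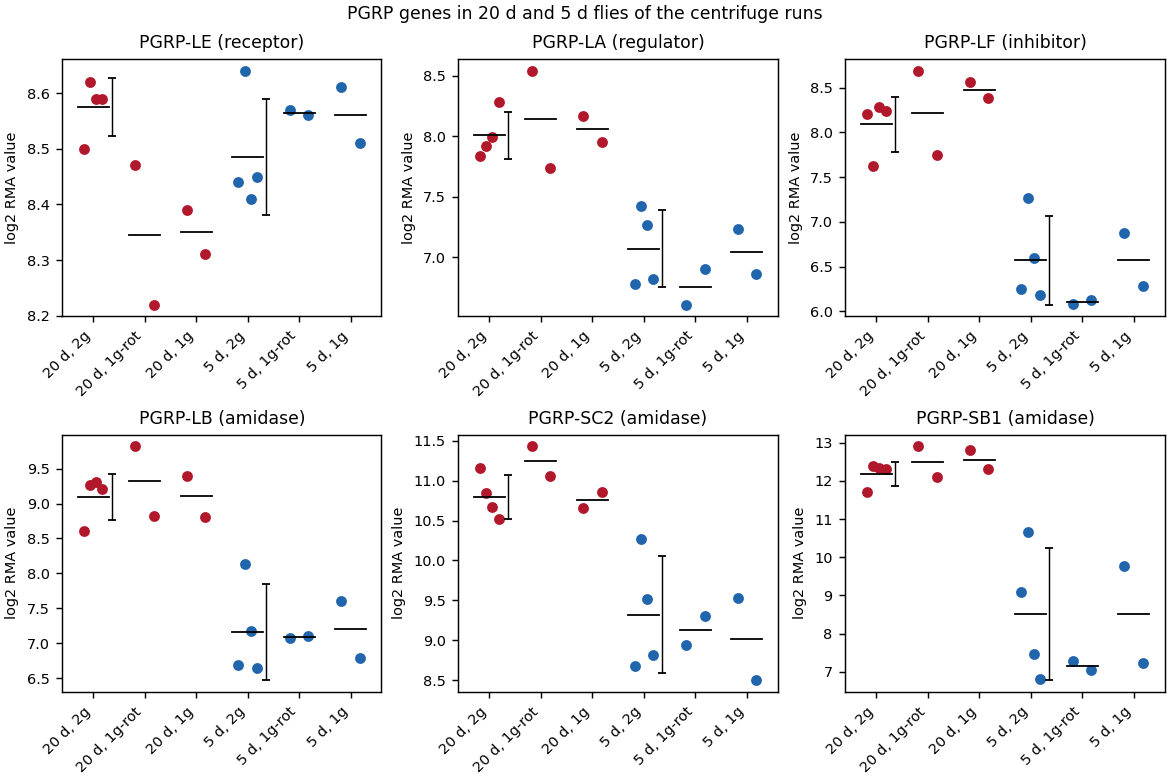
Log2 RMA values of the 6 PGRP genes in the centrifuge runs, 20 d flies (red) left of 5 d flies (blue) and 2g, 1g-rot and 1g within each age; each point is 1 array, lines are group means, and bars are the SD where n is 4. In every panel but that of PGRP-LE the 8 arrays of 20 d flies lie above the 8 arrays of 5 d flies, for PGRP-SB1 at 11.7 to 12.9.

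The calls at 1g rest on 2 arrays per age. There the log2 difference of PGRP-SB1 was 2.79 (adjusted p = 0.164) without 5 d 1g replicate 2 and 5.32 without 5 d 1g replicate 1, and at 2g it was 4.39 without 5 d 2g replicate 2, so that its folds moved by more than 1.5 times. Without 5 d 1g replicate 2 or without 20 d 1g replicate 1, 1 of the 6 genes passed there, PGRP-LF in both cases, and PGRP-SC2 also missed without 20 d 1g replicate 2 (1.65, adjusted p = 0.0726), whereas the count stayed at 5 at 2g and at 1g-rot whichever array was left out. The ages also stand in separate series of array names, so age and that split of the arrays cannot be told apart.

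Other measures moved with age in part. Over all probe sets, 8.86% fell with age at 2g, 6.14% at 1g and 10.2% at 1g-rot. The 3' minus 5' difference of the eIF-4a control, a sign of RNA quality, was 0.62 to 0.81 on the 4 arrays of 20 d flies at 1g and 1g-rot, against 1 to 1.2 on the 4 arrays of 5 d flies there, and overlapped between the ages at 2g. The same difference of the GAPDH control was 1.39 and 1.31 in 20 d flies at 1g-rot, against 1.64 and 1.68 in 5 d flies at 1g-rot, and overlapped at 2g and 1g. Photoreceptor genes had array medians of 7.2 to 7.41 in 20 d flies at 2g, against 7.82 to 8.02 in 5 d flies at 2g, and overlapped at 1g and 1g-rot. Eggshell medians were 6.18 and 9.095 in 20 d flies at 1g-rot, against 9.88 and 11.105 in 5 d flies at 1g-rot, and overlapped at 2g and 1g. The part of these in the result was not tested. Among 26 digestive enzyme genes of the gut, 6 rose and 11 fell at 2g, 2 rose and 10 fell at 1g, and 4 rose and 13 fell at 1g-rot, and their array medians were 10.19 to 10.63 in 20 d flies and 10.27 to 10.97 in 5 d flies. Of 5 fat body genes none passed the test in any of the 3 age comparisons by limma, with 2, 1 and 1 at an unadjusted p under 0.05, as had 28.3%, 23.3% and 29.2% of all probe sets. Of 13 hemocyte genes 1 rose in each, and 1, 2 and 3 fell at 2g, 1g and 1g-rot. Hemocyte array medians were 7.01 to 7.6 in 20 d flies and 6.99 to 7.73 in 5 d flies, and fat body medians were 4.89 to 5.22 and 4.85 to 8.32. The part of these tissues in the result was not tested.

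Some members of the Imd pathway passed the test with age and others did not. Of 17 measured pathway genes, 4 rose and 1 fell at 2g, 4 rose and 1 fell at 1g, and 3 rose and 1 fell at 1g-rot, with list medians of 0.09, 0.05 and 0.15. Over all probe sets, 10.0%, 4.98% and 8.22% rose, and 8.86%, 6.14% and 10.2% fell. By limma 10, 5 and 7 of the 17 genes had an unadjusted p under 0.05. The shares of all probe sets with one were 28.3%, 23.3% and 29.2%. The median level of the list was 8.79 to 9.17 on the 20 d arrays and 8.46 to 8.77 on the 5 d arrays. The members with the largest rises were the same in each, namely Rel, the NF-kappaB factor of the pathway, key, which encodes a subunit of the kinase that activates it, and pirk, an inhibitor of PGRP-LC and PGRP-LE signalling. Rel read 10.82, 11, 10.92 and 10.99 in 20 d flies at 2g, against 9.31, 10.05, 9.43 and 9.19 in 5 d flies at 2g. These groups did not overlap, and the difference was 1.44 (SE 0.22, adjusted p = 0.000187). At 2g the difference of key was 1.66 (SE 0.11, adjusted p = 3.25e-08) and that of pirk 1.71 (SE 0.20, adjusted p = 1.12e-05). The genes that fell were POSH at 2g (-0.46) and 1g-rot (-0.57) and dnr1 at 1g (-0.66), both known as regulators of the pathway.

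Of 6 measured antimicrobial peptide genes, 5 rose at 2g, 2 at 1g and 5 at 1g-rot, and none fell in these 3 comparisons. Over all probe sets, 10.0%, 4.98% and 8.22% rose there. Drs, which encodes drosomycin, passed in none of them. DptB, which encodes a diptericin and is a classical Imd target, read 12.79, 13.41, 13.24 and 13.08 in 20 d flies at 2g, against 9.14, 11.96, 7.28 and 6.62 in 5 d flies at 2g. The difference was 4.38 (SE 0.88, adjusted p = 0.0021). The largest rise at 2g was that of AttD, which encodes an attacin, by 5.8 (SE 1.09, adjusted p = 0.00116). At 2g Mtk, which encodes metchnikowin, differed by 3.29 (SE 0.89, adjusted p = 0.0167). The genes that rose at 1g were AttD, by 5.43 (SE 1.54, adjusted p = 0.0318), and Def, which encodes defensin, by 3.08 (SE 0.68, adjusted p = 0.00773).

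The Toll pathway moved in both directions. Of 17 measured genes, 4 rose and 3 fell at 2g, 1 rose and 0 fell at 1g, and 4 rose and 2 fell at 1g-rot, with list medians of 0.02, -0.06 and -0.07. Over all probe sets, 10.0%, 4.98% and 8.22% rose, and 8.86%, 6.14% and 10.2% fell. By limma 8, 7 and 9 of the 17 genes had an unadjusted p under 0.05, beside 28.3%, 23.3% and 29.2% of all probe sets. At 2g the protease genes Hayan (1.20) and spirit (0.97) rose, and the receptor gene Tl (-0.68) and its ligand gene spz (-0.57) fell.

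The size of the age difference did not pass a test of dependence on gravity for any of the 6 genes. Between 2g and 1g the differences of the age effect were between -0.38, in PGRP-LF and PGRP-SB1, and 0.30, in PGRP-LE, and the lowest adjusted p was 0.662, where 0.0586% of all probe sets passed. The interval for PGRP-SB1 was -2.79 to 2.03, so a large dependence could not have been seen. Between 2g and 1g-rot the difference for PGRP-SB1 was -1.66 (SE 1.13, adjusted p = 0.63) and that for PGRP-LE 0.31 (SE 0.14, unadjusted p = 0.0465, adjusted p = 0.428), where 0.442% of all probe sets passed.

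Within 5 d flies of the centrifuge, arrays of the same gravity level lay far apart for PGRP-SB1, at 2g and at 1g. PGRP-SB1 was at 10.67 on 2g replicate 2, at 9.77 on 1g replicate 1 and at 9.08 on 2g replicate 1, and between 6.82 and 7.47 on the other 5 arrays. DptB had the same 3 arrays on top, at 11.96, 11.32 and 9.14, with the other 5 at 6.49 to 8.04. PGRP-LB was also highest on 2g replicate 2 and 1g replicate 1, at 8.13 and 7.61, and PGRP-LF and PGRP-SC2 had these arrays highest as well, at 7.27 and 6.87 and at 10.27 and 9.53. PGRP-LA was highest on 2g replicate 2, at 7.42, with 2g replicate 3 next at 7.27.

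Among gravity levels in the centrifuge no PGRP gene passed the test by limma at either age, and PGRP-LE in 20 d flies alone had an unadjusted p under 0.05, against both 1g and 1g-rot, where 10.7% and 16.2% of all probe sets had one. For 2g against 1g, the differences in 20 d flies were between -0.39 in PGRP-LF and 0.23 in PGRP-LE, where 0.852% of all probe sets passed, and in 5 d flies between -0.08 in PGRP-LE and 0.31 in PGRP-SC2, where 0.0586% passed. The PGRP-LE arrays of 20 d flies at 2g, 8.5 to 8.62, lay above those at 1g, 8.39 and 8.31, and those at 1g-rot, 8.47 and 8.22, without overlap, as did 10.8% and 10.1% of all probe sets. PGRP-LF was apart the other way between 2g and 1g in 20 d flies (-0.39, adjusted p = 0.725), as were 8.63% of all probe sets. The difference of PGRP-LE was 0.23 to 1g (SE 0.10, adjusted p = 0.437) and 0.23 to 1g-rot (SE 0.10, adjusted p = 0.272, where 2.01% of all probe sets passed). For 2g against 1g-rot in 5 d flies, where 0.165% passed, the largest difference was that of PGRP-SB1, 1.35 (SE 0.80, adjusted p = 0.743), and PGRP-LF lay apart with higher values at 2g, as did 6.89% of all probe sets. The rotational control did not differ from 1g by the test in any of the 6 genes either, with 0.0426% of all probe sets called in 5 d flies and 0.00533% in 20 d flies. There PGRP-SB1 differed by -1.34 in 5 d flies (SE 0.93, adjusted p = 0.851), with 1 of the 2 arrays at 1g standing high. PGRP-LF was lower at 1g-rot without overlap in 5 d flies and PGRP-SC2 higher in 20 d flies, by values only (-0.48 and 0.49), where 16.8% and 19.0% of all probe sets lay apart in these directions.

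On the RPM arrays the labels separated PGRP-LE and PGRP-LA, in opposite directions, and neither the inhibitor nor the amidase genes. PGRP-LE read 8.61, 8.76 and 8.42 on arrays labelled males at 1g, against 8.07, 7.94 and 8.17 on arrays labelled females at 1g. At 0g it read 8.41, 8.45, 8.58 and 8.73 on arrays labelled males, against 7.99, 8.15 and 7.89 on arrays labelled females. The labels did not overlap at either gravity level, as was the case in this direction for 35.4% of all probe sets at 1g and 30.8% at 0g. The difference, labelled males minus labelled females, was 0.54 at 1g (SE 0.12, adjusted p = 0.00183) and 0.53 at 0g (SE 0.11, adjusted p = 0.00129). A rise was common here, with 29.8% of all probe sets higher on arrays labelled males at 1g and 30.0% at 0g, and the median difference over all probe sets was 0.06 and 0.13.

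PGRP-LA read 6.92, 6.77 and 6.76 on arrays labelled males at 1g, against 7.61, 7.5 and 7.8 on arrays labelled females at 1g. At 0g it read 7.45, 6.89, 7.13 and 6.72 on arrays labelled males, against 7.93, 7.39 and 7.67 on arrays labelled females. The labels were apart at 1g, as for 27.1% of all probe sets in this direction, and overlapped at 0g, where replicate 1 of the labelled males, an array with transcripts of both sexes, was above replicate 2 of the labelled females. The difference was -0.82 at 1g (SE 0.18, adjusted p = 0.00132) and -0.62 at 0g (SE 0.17, adjusted p = 0.00676). Lower values were found for 22.7% of all probe sets at 1g and 21.4% at 0g. Since the sex-limited transcripts run against the labels, the direction of both genes holds for the labels only.

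The scale of the arrays moved with the labels. Array medians were 5.35 to 5.54 on arrays labelled males and 5.68 to 5.85 on arrays labelled females, and centring each array on its median raised the median difference over all probe sets to 0.42 at 1g and 0.52 at 0g. After centring, PGRP-LA differed by -0.23 at 0g (adjusted p = 0.186), and after quantile normalization PGRP-LE differed by 0.25 at 1g (adjusted p = 0.0749). GAPDH 3' minus 5' differences were 1.47 to 1.7 on arrays labelled males and 1.13 to 1.42 on arrays labelled females. By the test, 7 of 13 hemocyte genes at 1g and 6 of 13 at 0g were higher on arrays labelled males, beside 29.8% and 30.0% of all probe sets. The part of these in the differences was not tested. Arrays labelled females carry the array letters A to C and arrays labelled males E to H, so label and that split of the arrays cannot be told apart.

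The other members overlapped between the labels at both gravity levels. The differences were -0.20 and -0.11 for PGRP-LF at 1g and 0g, -0.04 and -0.20 for PGRP-LB, -0.29 and 0.03 for PGRP-SC2, and -0.42 and -0.69 for PGRP-SB1, the last with an adjusted p of 0.305 and 0.0654. PGRP-SB1 passed at 0g without replicate 2 of the labelled females (-0.96, adjusted p = 0.0164) or replicate 4 of the labelled males (-0.83, adjusted p = 0.0429), and it was -0.46 (adjusted p = 0.26) without replicate 1 of the labelled females. At 1g it passed without replicate 3 of the labelled males (-0.78, adjusted p = 0.0358), and was -0.17 (adjusted p = 0.729) without their replicate 1. After centring, PGRP-SC2 passed at 0g (0.42, adjusted p = 0.0328). Of the Imd pathway, 8 of 17 genes rose at 1g and none fell, and at 0g 8 rose and 1 fell. POSH led both, at 2.84 (SE 0.23, adjusted p = 1.78e-07) and 2.31 (SE 0.22, adjusted p = 9.6e-07). Of 17 Toll pathway genes, 9 rose and 5 fell at 1g, and 10 rose and 5 fell at 0g, and Tl led with 3.13 (SE 0.28, adjusted p = 3.43e-07) and 2.44 (SE 0.26, adjusted p = 2.72e-06). Over all probe sets, 29.8% rose and 22.7% fell at 1g, and 30.0% rose and 21.4% fell at 0g.

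**Figure D3:**
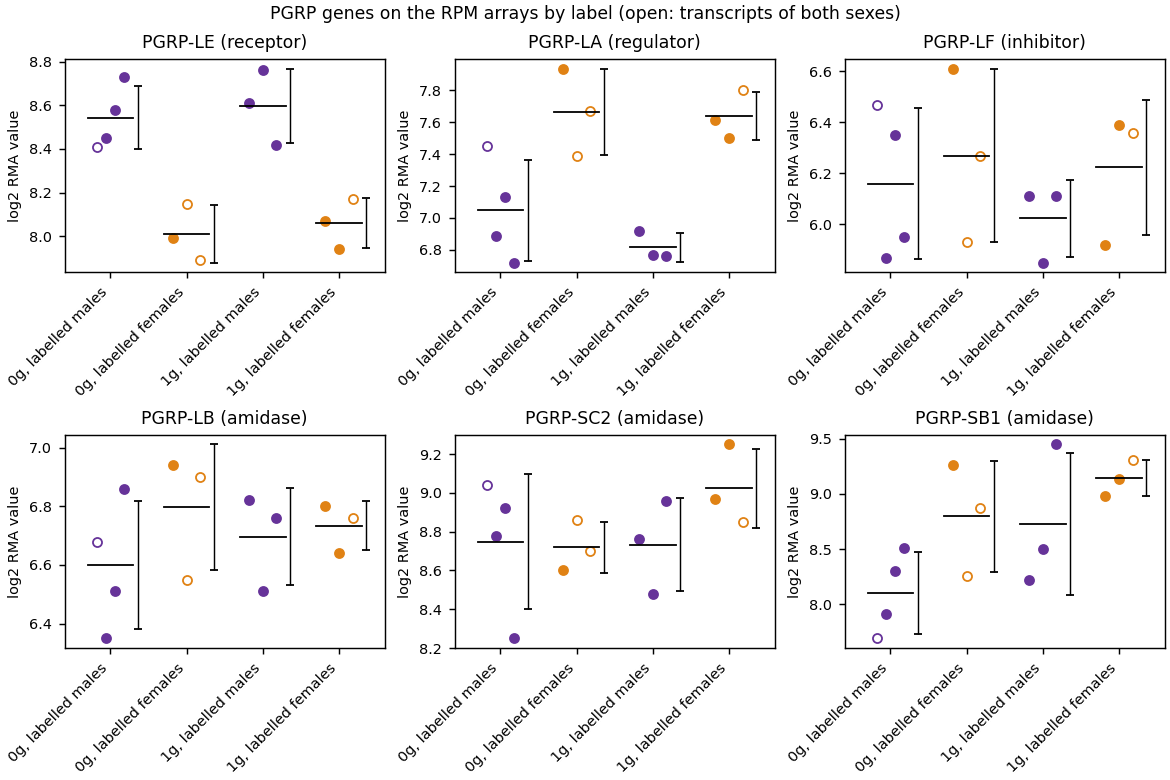
Log2 RMA values of the 6 PGRP genes on the 13 RPM arrays, labelled males (purple) left of labelled females (orange) at 0g and at 1g; points are arrays, open where transcripts of both sexes were found, lines are means and bars are the SD. PGRP-LE lies higher on arrays labelled males and PGRP-LA lower, with differences at 1g of 0.54 and -0.82.

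Under simulated weightlessness in the RPM, the arrays at 0g overlapped with those at 1g for all 6 genes under both labels. At 0g against 1g, 0 of 6 passed under either label by limma, and 0 of 12 tests had an unadjusted p under 0.05, against 6.12% of the tests of all probe sets, while 0% of all probe sets passed on arrays labelled females and 0.00533% on arrays labelled males. The largest difference was in PGRP-SB1 on arrays labelled males, which read 7.69, 7.91, 8.3 and 8.51 at 0g and 8.22, 8.5 and 9.45 at 1g. These groups overlapped, and the difference was -0.62 (SE 0.29, adjusted p = 0.781). On arrays labelled females it was -0.35 (SE 0.31, adjusted p = 0.894). For PGRP-LE the intervals were the narrowest, -0.30 to 0.19 on arrays labelled males and -0.31 to 0.21 on arrays labelled females. The effect of 0g did not differ between the labels by the test for any of the 6 genes, with a lowest adjusted p of 0.658.

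In the magnet, 0 of 6 genes passed the test by limma in any of the 6 comparisons of 0g*, 1g*, 2g* and outside at 14C. At most 0.0266% of all probe sets passed in these, and 8 of the 36 tests of a PGRP gene had an unadjusted p under 0.05, in PGRP-SB1, PGRP-LA and PGRP-SC2, as had 11.2% of the tests of all probe sets. PGRP-SB1 stood higher on all 9 arrays inside the field than on both outside at 14C. It read 8.36, 8.64 and 9.65 at 0g*, 9.43, 8.4 and 9.28 at 1g* and 9.45, 8.96 and 8.84 at 2g*, against 8.25 and 7.83 outside at 14C. The differences were 0.84 (SE 0.36, adjusted p = 1), 1.00 (SE 0.36, adjusted p = 0.209) and 1.04 (SE 0.36, adjusted p = 0.999) and share the same 2 outside arrays. Groups lay apart in this direction for 7.00%, 16.4% and 8.26% of all probe sets in these comparisons. Whether PGRP-SB1 passed at 1g* depended on single arrays. Without 1g* replicate 2 the difference was 1.32 (adjusted p = 0.0439), without 1g* replicate 1 it was 0.80 (adjusted p = 0.571), and with the array that has both 24C and 14C among its labels placed at 14C it was 1.21 (adjusted p = 0.0466).

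Among the magnet groups at 14C, the means of PGRP-LA, PGRP-SC2, PGRP-LF and PGRP-LB were highest at 1g*, and PGRP-LA and PGRP-SC2 had an unadjusted p under 0.05 at 0g* and at 2g* against 1g*, as had 23.0% and 14.3% of all probe sets. PGRP-LA read 6.37, 6.04 and 6.4 at 0g*, 6.89, 6.59 and 6.81 at 1g* and 5.95, 6.38 and 6.48 at 2g*, against 6.17 and 6.35 outside at 14C. Its arrays at 1g* lay above all of the others, without overlap. Between 2g* and 1g*, 9.27% of all probe sets lay apart with the lower values at 2g*, and PGRP-LA differed by -0.49 (SE 0.18, adjusted p = 0.32). The difference between 1g* and outside was 0.50 (SE 0.20, adjusted p = 0.227), and 0.63 (adjusted p = 0.0465) with the array of both temperature labels placed at 14C. PGRP-SC2 read 8.37, 8.23 and 8.2 at 0g*, against 10.13, 8.83 and 9.02 at 1g*. These groups lay apart, as did 12.9% of all probe sets in this direction, while 0.0213% of all probe sets passed the test. The difference was -1.06 (SE 0.32, adjusted p = 0.129), -0.66 (adjusted p = 0.496) without 1g* replicate 1 and -1.31 (adjusted p = 0.0317) without 1g* replicate 2. PGRP-SC2 at 0g* was also below its values at 2g* without overlap, as were 5.57% of all probe sets. The highest array, 1g* replicate 1, was the one with transcripts of both sexes. Hemocyte array medians were 7.1 to 7.66 at 1g*, against 6.57 and 7.06 outside at 14C, and fat body medians were 10.82 to 11.38 against 10.65 and 9.96. Photoreceptor medians were 7.95 to 8.67 at 1g*, against 7.49 and 7.56 outside at 14C, and eggshell medians were 6.88 to 11.84 against 12.01 and 12.49. None of these 4 sets overlapped. Their part was not tested.

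PGRP-LE, PGRP-LF and PGRP-LB had no unadjusted p under 0.05 by limma among the magnet groups at 14C. For PGRP-LF the difference was not small. At 1g* against outside at 14C it was 0.61 (SE 0.34), against 0.50 (SE 0.20) for PGRP-LA. Inside against outside at 14C, PGRP-LE differed by -0.01 to 0.10, with intervals that ran no further than -0.29 and 0.38, PGRP-LF by 0.12 to 0.61 and PGRP-LB by -0.03 to 0.26. The arrays of PGRP-LB at 0g* and at 1g* lay above both outside, with adjusted p of 1 and 0.612, as did 7.00% and 16.4% of all probe sets. Outside the magnet, 24C and 14C did not differ by the test in any of the 6 genes, where 0.480% of all probe sets passed. PGRP-SB1 was the member farthest apart, at 7.39, 7.11 and 7.27 at 24C against 8.25 and 7.83 at 14C, without overlap, as for 8.95% of all probe sets in this direction, a difference of -0.78 (SE 0.36, unadjusted p = 0.0486, adjusted p = 0.642).

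In the 80 h magnet runs the amidase genes had lower mean values inside than outside, and 1 of them passed the test in 1 comparison. PGRP-LB read 6.16 and 5.99 at 1g* and 14C, against 6.79, 7 and 7.3 outside at 24C, without overlap. The difference was -0.96 (SE 0.16, adjusted p = 0.0343), where 0.549% of all probe sets fell and 14.5% lay apart in this direction. This call was lost on leaving out any 1 of the 5 arrays, with differences of -1.08 to -0.82 and adjusted p of 0.0596 to 0.107, and with 1 fit over all 50 arrays (adjusted p = 0.124). At 0g* and 14C PGRP-LB read 6.49 and 6.59, also below the outside arrays, as did 9.21% of all probe sets, and the difference was -0.49 (SE 0.16, adjusted p = 0.291). None of the 6 genes passed there by limma, where 0.927% of all probe sets passed. The 3 amidase genes had an unadjusted p under 0.05, as had 11.1% of all probe sets.

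PGRP-SB1 read 8.14 and 8.48 at 0g* and 8.07 and 7.95 at 1g*, against 10.32, 10.81 and 8.62 outside at 24C. All 4 arrays inside lay below the 3 outside, and the third outside array stood close to those inside. The difference was -1.61 at 0g* (SE 0.51, adjusted p = 0.264) and -1.91 at 1g* (SE 0.51, adjusted p = 0.137). Without outside replicate 3 they were -2.26 (adjusted p = 0.0137) and -2.56 (adjusted p = 0.0104), and without outside replicate 2 they were -1.16 (adjusted p = 0.498) and -1.46 (adjusted p = 0.293). DptB had the same outside arrays on top, with 6.85 and 6.98 at 0g* and 6.68 and 6.67 at 1g*, against 10.96, 11.52 and 7.49 outside. PGRP-SC2 read 9.21 and 8.92 at 0g* and 8.99 and 9.03 at 1g*, against 9.21, 9.8 and 9.84 outside, so that 1 array at 0g* tied with the lowest outside, with differences of -0.55 (SE 0.20, adjusted p = 0.333) and -0.61 (SE 0.20, adjusted p = 0.214).

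**Figure D4:**
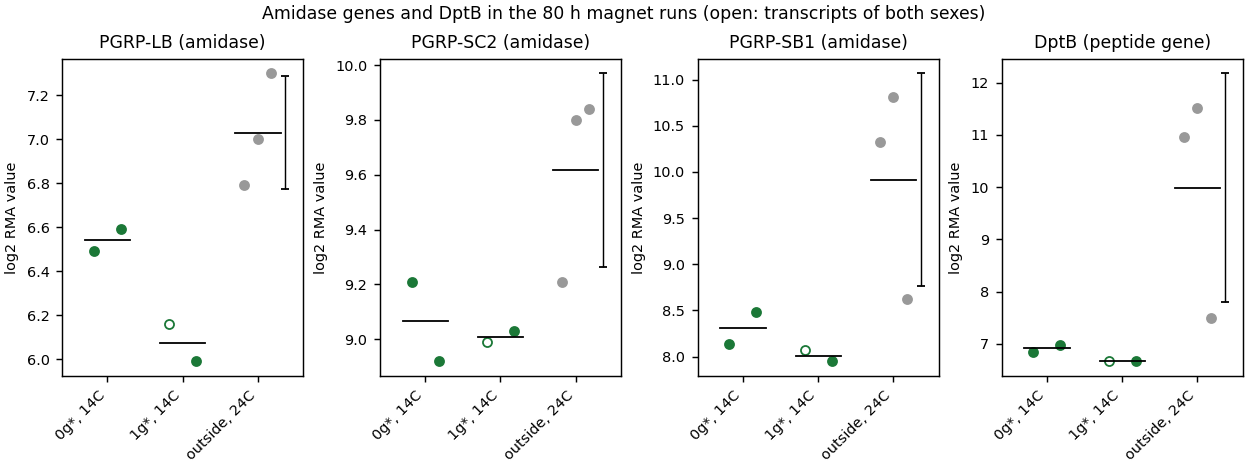
Log2 RMA values of the 3 amidase genes and of the antimicrobial peptide gene DptB in the 80 h magnet runs, inside the field at 0g* and 1g* and 14C (green) left of outside at 24C (grey); points are arrays, open where transcripts of both sexes were found, lines are means and the bar is the SD where n is 3. PGRP-LB is lowest at 1g*, at 6.16 and 5.99, and the third outside array, at 8.62 for PGRP-SB1 and 7.49 for DptB, stands apart from the others.

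The 3 measured genes that do not encode amidases, among them the inhibitor gene PGRP-LF, did not share this pattern by their values. PGRP-LE differed by 0.15 at 0g* (SE 0.12, adjusted p = 0.703) and 0.09 at 1g* (SE 0.12, adjusted p = 0.804), PGRP-LA by 0.29 and -0.09, and PGRP-LF by 0.01 and 0.43. Of these, PGRP-LE in both comparisons, PGRP-LA at 0g* and PGRP-LF at 1g* were higher inside without overlap, as were 18.9% of all probe sets at 0g* and 18.8% at 1g*. In these runs the inside arrays were at 14C and the outside arrays at 24C, so field and temperature cannot be told apart. Digestive enzyme genes were also lower inside, 6 of 26 at 0g* and 8 of 26 at 1g* with none higher, where 0.517% and 0.549% of all probe sets fell, and their array medians were 9.69 to 9.96 inside and 10.53 to 11.15 outside. Their part in the amidase values was not tested. None of the 17 Imd pathway genes, 17 Toll pathway genes and 6 antimicrobial peptide genes passed in either comparison by limma, although the median of the antimicrobial list was -1.12 at 0g* and -0.89 at 1g* and 5 and 3 of its genes had an unadjusted p under 0.05, as had 4 and 3 of the Imd list, 3 and 5 of the Toll list, and 11.1% and 14.2% of all probe sets. Between 0g* and 1g* at 80 h no PGRP gene passed, where 0.00533% of all probe sets did, and PGRP-LF (-0.42) and PGRP-LB (0.47) had an unadjusted p of 0.0214 and 0.0287 (limma, adjusted p = 0.7 for both), while 6.92% of all probe sets had one under 0.05. Both lay apart between these pairs of arrays, as did 13.4% of all probe sets downward and 18.8% upward.

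Over all 18 groups the order of levels followed the same lines. PGRP-LE had the narrowest range of group means, 8.01 to 8.60, with both groups of RPM labelled females at the bottom and apart from the next group, and most neighbours in the order, 15 of 17, overlapped. For PGRP-LF, PGRP-LB, PGRP-SC2 and PGRP-SB1 the 3 groups of 20 d flies were on top and apart from the other 15 groups. Of PGRP-LA they were on top too, but the next group, RPM labelled females at 0g, reached 7.93 and overlapped with them. The ranges of group means were 5.95 to 8.14 for PGRP-LA, 5.62 to 8.48 for PGRP-LF, 6.08 to 9.32 for PGRP-LB, 8.27 to 11.25 for PGRP-SC2 and 7.17 to 12.56 for PGRP-SB1. These orders compare arrays of different facilities, which were run at different temperatures. The eIF-4a 3' minus 5' difference also set the 80 h runs apart, at 2.43 to 3.34 inside and 2.61 to 2.92 outside, against at most 1.88 in the other groups.

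Some of the genes followed each other from array to array. After the mean of its own group was taken from every value, PGRP-LA and PGRP-LF correlated at 0.72 over the 50 arrays, PGRP-LF and PGRP-SC2 at 0.70 and PGRP-LA and PGRP-LB at 0.69, while PGRP-SB1 correlated at 0.48 with PGRP-LB and at 0.30 with PGRP-SC2. PGRP-LE correlated with the other 5 at -0.23 to 0.23. Among the 6 antimicrobial peptide genes, PGRP-SB1 correlated at 0.89 with DptB, 0.79 with CecB, 0.77 with Mtk, 0.76 with AttD, 0.42 with Def and 0.16 with Drs. PGRP-LA correlated at 0.76 with Rel. All pairs of values come from the same arrays and share their RNA and scaling.

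The genes most like each member were found over the 37 magnet and LDC arrays, each value taken minus the mean of its facility, so the age difference weighs heavily in them. They were Eps-15 (Pearson r 0.78), Deaf1 (0.73) and Upf1 (0.72) for PGRP-LE, CG13077 (0.92), Rel (0.92) and CG9380 (0.92) for PGRP-LA, and CG10126 (0.93), Nmda1 (0.92) and CG18480 (0.92) for PGRP-LF. For the amidase genes they were Vps60 (0.93), Ugt36A1 (0.93) and CG17224 (0.92) for PGRP-LB, Tsp42Er (0.90), CG15347 (0.90) and CG44251 (0.89) for PGRP-SC2, and DptB (0.94), edin (0.93) and AttD (0.91) for PGRP-SB1. Of these lists, that of PGRP-SB1 holds 2 antimicrobial peptide genes, DptB and AttD, with edin, an infection-induced gene, as the other.

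**Figure D5:**
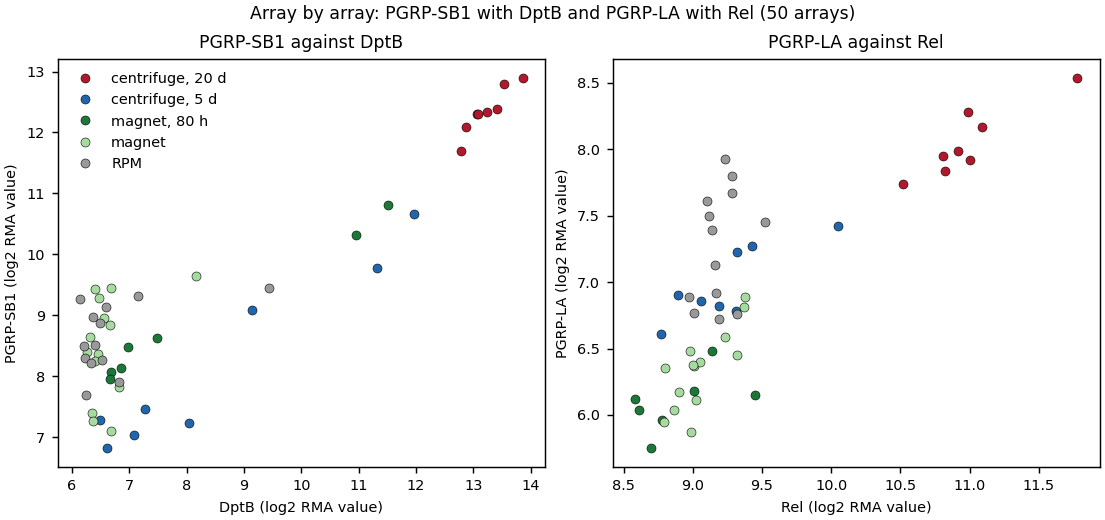
PGRP-SB1 against DptB (left) and PGRP-LA against Rel (right), both axes in log2 RMA values, with 1 point for each of the 50 arrays coloured by facility and age. The 8 arrays of 20 d flies form the upper right of both panels, and in the left panel 3 arrays of 5 d centrifuge flies, 2 of the 80 h magnet runs and 1 of the RPM lie between them and the rest, at DptB values of 9.14 to 11.96.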

How the data were processed

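Per the labels, adult flies left a facility, were placed on ice in Trizol, and their RNA was hybridised to Affymetrix Drosophila 2.0 arrays. The authors deposited log2 values made with RMA and also name limma. No version of either is given in the sources used here, and the scanner files were not used. Depth does not apply, and the number of arrays, 2 to 4 in a group, limits the precision.

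Of 18952 probe sets, 183 controls were left out and 18769 tested. A separate limma fit (version 3.58.1, R 4.3.3) of group means was made for the arrays of each facility and for the 80 h magnet runs, and p values were adjusted by the method of Benjamini and Hochberg over all probe sets of a comparison. Gene symbols came from the platform annotation, and chromosome arms and neighbours from RefSeq. A member passed at an adjusted p under 0.05 and was named wherever it did; of each pathway list up to 3 members in each direction with the largest differences could be named, and for each member the 3 most similar genes. Members and lists were chosen with earlier results of these data known. Groups follow the labels; 1 array titled 24C that has 14C among its labels was kept at 24C. Arrays held transcripts of both sexes where the accessory gland median was over 5 and the yolk protein median over 7. No sequence was used. The fits were tested on simulated data. Alternatives were other array scalings, a filter on dim probe sets, blocks for replicate number and array letter, leaving out arrays, another placing of the array with 2 temperatures, the pooled 1g and 1g-rot arrays as baseline in the centrifuge, and 1 fit over all arrays.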

Additional observations from a re-analysis of the deposited data

Results flagged for a closer look

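In 20 d flies at 2g, a single array lay below the other 3 for PGRP-LF (7.63 on replicate 2, the others 8.21 to 8.28), PGRP-LB (8.61 on replicate 1, the others 9.21 to 9.31) and PGRP-SB1 (11.7 on replicate 1, the others 12.31 to 12.38), by more than Dixon's critical value. These were 3 of 18 such tests, and chance flags about 1 in 20.

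PGRP-LA ran in opposite directions at 0g* against 1g* in the magnet runs, where the difference was -0.49, and in the 80 h runs, where it was 0.38, with every array of one group beyond those of the other in each. The difference of the 2 differences was 0.87 (SE 0.31) and did not pass the test in a limma fit of all arrays (adjusted p = 0.121, where 0.538% of all probe sets passed).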

How the results depend on the processing

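Over 25 counts of PGRP genes that passed, 294 of 311 values under other settings stayed within 1.5 times the main count, 18 counts never moved beyond that, and no gene that passed changed direction. PGRP-SC2 between the RPM labels at 0g, which did not pass, was -0.07 to 0.19 on leaving out single arrays. For the RPM labels the count was 1 at 1g after quantile normalization and 4 at 0g with the replicate block, where PGRP-LB (-0.28) and PGRP-SB1 (-0.83) passed too (adjusted p = 0.0238 each). For 1g* against outside at 14C, where none passed, it was 0 to 1 on leaving out single arrays and 2 with the array of both temperature labels placed at 14C. For 0g* against 1g* it was 0 to 1 on leaving out single arrays and 1 in 1 fit over all arrays, PGRP-SC2 (adjusted p = 0.0196). For the 80 h runs at 0g* against outside it was 1 with the replicate block, 1 with array letter as a block and 0 to 1 without single arrays, each PGRP-SB1. At 1g* against outside it was 0 without the array with transcripts of both sexes, 0 in 1 fit over all arrays and 0 to 1 without single arrays, and with the replicate block PGRP-SB1 (-2.56, adjusted p = 0.0101) passed in place of PGRP-LB (-0.82, adjusted p = 0.152). For 20 d against 5 d flies at 1g it was 1 to 5 without single arrays. The causes were not tested. Arrays of the same replicate number correlated at -0.34 to 0.47 in their deviations from group means, and the numbers were not taken as pairs; the replicate block changed no call of the age comparisons. No member had a further probe set, and the letter block could not be fitted where groups share no letter.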

Other observations

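PGRP-SB2, the neighbour of PGRP-SB1 on 3L and not among the 9 genes, lay close to the background. Over all 50 arrays it read 4.12 to 5.08, with 4.56 to 4.92 in 20 d flies of the centrifuge and 4.45 to 4.94 in 5 d flies there.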
